A study of Mus musculus with 12 samples.

Results

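Neuronal pentraxins and cerebellins are 2 small families of secreted or membrane-bound synaptic organizer proteins, here the genes Nptx1, Nptx2, Nptxr, Cbln1, Cbln2, Cbln3 and Cbln4. They were followed in granule cell progenitors, which divide in the external layer of the young cerebellum before they become neurons. The 7 genes were found by exact gene symbol among 18193 genes on the array, and 6 of them had probe sets of their own, 11 in all. Nptxr had none of its own, since its 3 probe sets were annotated jointly to Nptxr and Npcd, a transcript that runs through the Nptxr gene. The families were chosen by measured values of these arrays, because Nptx1 and Cbln4 were among the genes furthest above wild type in SmoM2 progenitors. SmoM2 minus wild type is therefore given for all 7 genes as a description with no test read from it, and tests were made only between cerebellar regions, for the difference between both SmoM2 effects, and on genes outside the families.

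The study asked how strong hedgehog signalling acts on progenitors of the lateral cerebellum (the hemispheres) and of the midline (the vermis), from which medulloblastoma can arise. The groups were SmoM2 hemisphere, wild type (WT) hemisphere, SmoM2 vermis and WT vermis, with 3 arrays each and 12 in all, and each array held pooled RNA of 5 mice aged to postnatal day 8. SmoM2 mice were Atoh1-CreER/+; R26LSL-SmoM2-YFP: an activated Smoothened, fused to YFP and placed at Rosa26 behind a stop cassette, was switched on by a tamoxifen-dependent Cre in Atoh1-expressing cells after 200 µg of tamoxifen per g at postnatal day 2. The background was mixed (C57BL/6 and Swiss Webster) in every group, and cells were separated on a Percoll gradient, which enriches small dense cells and does not select on Cre activity. The sources used here do not say whether WT mice were given tamoxifen.

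Values are RMA log2 expression levels, on which a step of 1 is a doubling of signal. The lower quartile of an array lay between 3.24 and 3.42 and the upper quartile between 6.90 and 7.10, and arrays of one group correlated at 0.988 to 0.996. The hedgehog readout genes Gli1, Ptch1 and Hhip rose in SmoM2 progenitors of both regions, Gli1 by 1.68 ± 0.14 in the hemisphere and 1.50 ± 0.14 in the vermis (difference ± SE, adjusted p = 2.52e-06 and 7.84e-06). The progenitor marker Atoh1 was present at 8.65 to 9.10 in SmoM2 arrays and 7.75 to 8.27 in WT arrays. Gabra6, a defining marker of mature granule neurons, lay near the bottom of the range in every group, at 2.90 to 3.16 in SmoM2 arrays and 2.90 to 3.43 in WT arrays. Of the 6 measured markers of such neurons, only 1 had a mean below every array's lower quartile in each group. Gabra6 therefore does not stand for the whole list.

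Neuronal pentraxins assemble into complexes at excitatory synapses, where they bind and cluster AMPA-type glutamate receptors. Nptx1 and Nptx2 are secreted, Nptx2 being also known as the activity-induced protein Narp, and Nptxr anchors such complexes to the membrane until the protease Adam17 cleaves it. Cerebellins are secreted proteins of the C1q family. In the cerebellum, Cbln1 is released by granule cells and helps to form and maintain the synapses of their parallel fibres on Purkinje cells.

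Among the pentraxins, the SmoM2 and WT arrays stood furthest apart for Nptx1. Its brightest probe set, 1434877_at, read 7.94, 8.23 and 8.65 in SmoM2 hemisphere arrays, against 4.13, 3.16 and 3.23 in WT hemisphere arrays. In the vermis it read 8.48, 8.76 and 8.90 in SmoM2 arrays, against 4.40, 3.80 and 3.45 in WT arrays. All 6 SmoM2 arrays lay above all 6 WT arrays, with a wide gap and no overlap in either region. The difference was 4.77 ± 0.27 in the hemisphere (SE, n = 3 each; 27.2-fold) and 4.83 ± 0.27 in the vermis (28.4-fold). In 2 of the 3 WT hemisphere arrays the level was under that array's lower quartile, where RMA compresses differences and gives no detection call.

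The second Nptx1 probe set, 1422130_at, kept the same order of groups with a much smaller gap. It read 5.56, 6.24 and 6.06 in SmoM2 hemisphere arrays, against 3.51, 4.51 and 4.50 in WT hemisphere arrays. Vermis levels were 5.75, 6.72 and 6.69 in SmoM2 arrays, against 4.28, 4.29 and 4.57 in WT arrays. The groups again did not overlap, but the differences were 1.78 ± 0.29 in the hemisphere (3.43-fold) and 2.01 ± 0.29 in the vermis (4.02-fold). The size of the Nptx1 difference thus rests on the probe set, while its direction does not. WT hemisphere replicate 1 was the highest of its group on the brightest set and the lowest on the second.

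Nptx2 differed little between the genotypes. Its brightest probe set, 1420720_at, read 5.89, 5.69 and 5.49 in SmoM2 hemisphere arrays and 5.54, 5.22 and 5.39 in WT hemisphere arrays, and these groups overlapped. In the vermis it read 5.83, 5.74 and 6.07 in SmoM2 arrays and 5.37, 5.65 and 5.61 in WT arrays, where all 3 SmoM2 arrays were the higher ones. The differences were 0.30 ± 0.13 in the hemisphere (1.24-fold) and 0.34 ± 0.13 in the vermis (1.27-fold). The other Nptx2 set, 1449960_at, lay near the bottom of the range at 3.01 to 3.34 in SmoM2 arrays and 2.97 to 3.53 in WT arrays and differed by -0.024 and -0.046.

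The probe sets shared by Npcd and Nptxr lay on the other side of WT. The brightest of the 3, 1434270_at, read 5.59, 5.66 and 5.49 in SmoM2 hemisphere arrays, against 6.06, 5.84 and 6.85 in WT hemisphere arrays. Vermis levels were 5.64, 5.46 and 5.30 in SmoM2 arrays, against 6.27, 6.24 and 6.79 in WT arrays. Its differences were -0.67 ± 0.22 for the hemisphere and -0.97 ± 0.22 for the vermis, and WT replicate 3 was the highest array of both regions. The set 1450147_at differed by -0.35 ± 0.12 and -0.39 ± 0.12, and 1421181_at by -0.31 ± 0.13 and -0.26 ± 0.13, in the hemisphere and the vermis. On all 3 sets and in both regions every SmoM2 array was below every WT array, and signal of Nptxr and Npcd cannot be told apart in them.

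**Figure D1:**
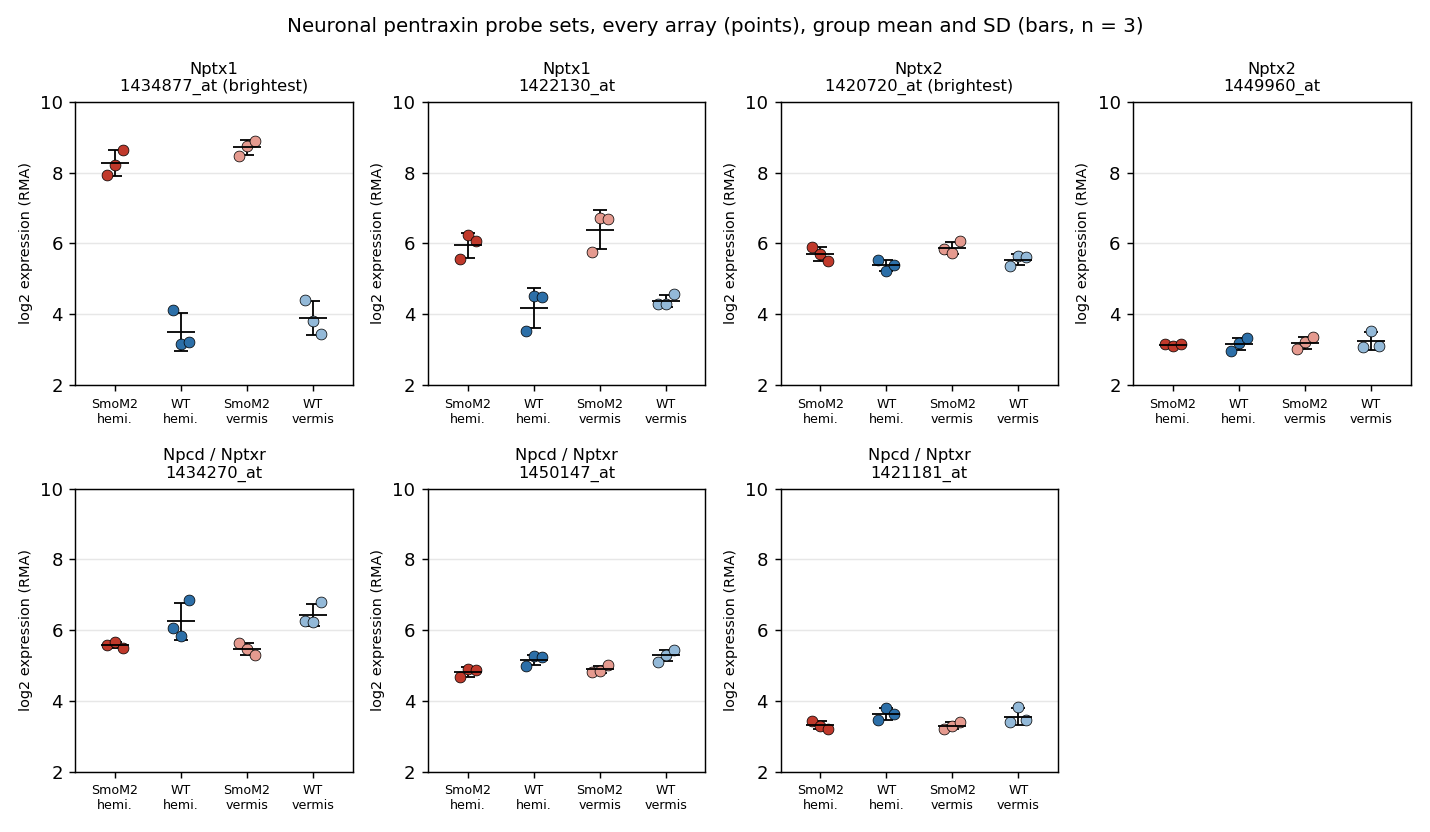
Log2 expression level (vertical axis) of each probe set of Nptx1 and Nptx2 and of the sets shared by Npcd and Nptxr, by genotype and region (horizontal axis). Points are single arrays and bars the group mean and SD of 3 arrays. SmoM2 arrays stand clear above WT arrays on both Nptx1 sets, by 4.77 and 4.83 on the brightest, while the shared Npcd and Nptxr sets are lower in SmoM2 arrays.

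The levels of Cbln1 overlapped between the genotypes. Its brightest probe set, 1423286_at, read 9.11, 9.34 and 9.06 in SmoM2 hemisphere arrays and 8.97, 8.99 and 9.55 in WT hemisphere arrays. Its vermis levels were 9.06, 9.26 and 9.04 in SmoM2 arrays and 8.88, 8.88 and 9.27 in WT arrays. The genotypes overlapped in both regions, with a difference of -0.0011 ± 0.16 in the hemisphere and 0.11 ± 0.16 in the vermis. On the other 2 sets, 1423287_at and 1423288_s_at, the genotypes overlapped as well, with differences of 0.02 and -0.12 for the hemisphere and 0.20 and 0.03 for the vermis. Names ending in _s_at mark sets whose probes can match several transcripts.

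Cbln2, a relative of Cbln1 that also binds neurexins, was read by the single set 1434779_at. It stood at 3.42, 3.70 and 3.56 in SmoM2 hemisphere arrays, against 4.12, 3.91 and 4.10 in WT hemisphere arrays. Vermis values were 3.31, 3.55 and 3.09 in SmoM2 arrays, against 3.78, 4.05 and 3.85 in WT arrays. SmoM2 arrays were the lower ones in both regions with no overlap, by -0.48 ± 0.13 in the hemisphere and -0.57 ± 0.13 in the vermis. All of these levels are close to the arrays' lower quartiles.

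Cbln3, which granule cells secrete in complexes with Cbln1, was also lower in SmoM2 arrays. Its brightest set, 1455445_at, read 3.83, 4.06 and 4.26 in SmoM2 hemisphere arrays, against 4.55, 4.91 and 4.74 in WT hemisphere arrays. Its vermis levels were 3.92, 4.17 and 4.11 in SmoM2 arrays, against 4.46, 4.34 and 5.06 in WT arrays. The groups did not overlap, and the differences were -0.69 ± 0.17 in the hemisphere and -0.55 ± 0.17 in the vermis. The dimmer set, 1422911_at, differed by -0.27 ± 0.13 and -0.12 ± 0.13, with overlap in both regions.

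Cbln4, a cerebellin known to bind neurexins and DCC, was the member of its family that stood far above WT. Its only set, 1433607_at, read 6.48, 6.72 and 6.38 in SmoM2 hemisphere arrays, against 2.95, 3.03 and 2.80 in WT hemisphere arrays. In the vermis it read 6.00, 6.76 and 6.22 in SmoM2 arrays, against 2.65, 2.62 and 3.15 in WT arrays. No WT array came near a SmoM2 array, and all 6 WT arrays were under their own lower quartile. The difference was 3.60 ± 0.18 in the hemisphere (12.1-fold) and 3.53 ± 0.18 in the vermis (11.5-fold), computed from WT levels at which the array gives no detection call.

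**Figure D2:**
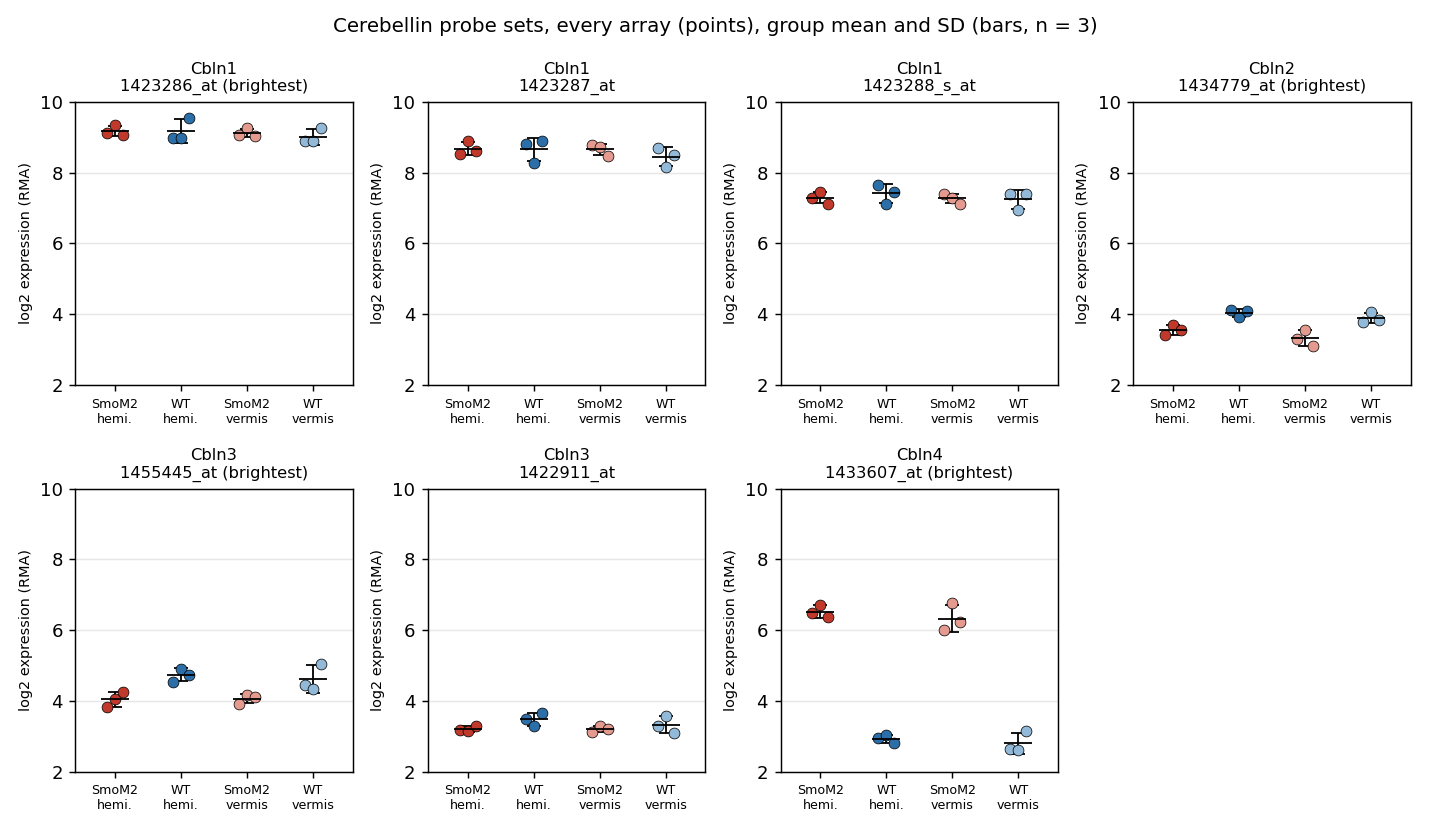
Log2 expression level (vertical axis) of each cerebellin probe set by genotype and region (horizontal axis), with single arrays as points and the group mean and SD of 3 arrays as bars. Cbln1 overlaps between the genotypes, Cbln2 and Cbln3 are slightly lower in SmoM2 arrays, and Cbln4 is higher in SmoM2 arrays by 3.60 in the hemisphere and 3.53 in the vermis.

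Promoter sequence is shown for 2 of the 7 members, cerebellins that lay on opposite sides of WT, though they were not chosen for that. Members were picked by having a window, with a filter that left a chromosome out, so other members may have windows too. The windows are RefSeq's, on GRCm38.p6, from 250 bases before to 50 bases after the gene start, and both genes lie on the minus strand. Cbln4 is at chr2:172043417-172043716 and Cbln3 at chr14:55884207-55884506. Capitals mark matches to CANNTG, the E-box letters that basic helix-loop-helix factors such as Atoh1 and Neurod1 can bind.
Cbln4 promoter: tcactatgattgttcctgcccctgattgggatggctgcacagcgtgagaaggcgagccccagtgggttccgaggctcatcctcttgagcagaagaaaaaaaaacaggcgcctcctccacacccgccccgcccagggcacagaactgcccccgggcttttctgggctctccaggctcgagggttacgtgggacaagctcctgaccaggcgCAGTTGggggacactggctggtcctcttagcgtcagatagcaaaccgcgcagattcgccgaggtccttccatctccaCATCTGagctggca
Cbln3 promoter: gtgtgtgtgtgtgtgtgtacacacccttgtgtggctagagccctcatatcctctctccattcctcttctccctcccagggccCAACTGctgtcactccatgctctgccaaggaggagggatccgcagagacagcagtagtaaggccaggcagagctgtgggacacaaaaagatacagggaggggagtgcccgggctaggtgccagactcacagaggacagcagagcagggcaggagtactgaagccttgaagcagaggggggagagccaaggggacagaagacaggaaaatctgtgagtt
Cbln4 held 2 such matches and Cbln3 held 1, and 72.3% of 32851 promoters of the same length held at least 1, so the match is common. The Cbln4 window had 60.3% G and C with 15 CpG dinucleotides and the Cbln3 window 57% with 2, against medians of 52.7% and 7 over all promoters. Neither window held GACCACCCA, the letters of the Gli consensus, on either strand, nor TATAAA, which were in 0.253% and 13.6% of all promoters. These letters were searched on both strands, and a missing match says only that they are not in this window.

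Of the 6 genes with sets of their own, 4 in the hemisphere and 5 in the vermis had genotypes that did not overlap, beside 31.7% and 39.8% of all genes. Since this contrast took up the families, nothing is read from the count. The median difference of the 6 genes was 0.15 in the hemisphere and 0.22 in the vermis, beside -0.05 and -0.06 over all genes. Each family held a gene far above WT, a gene whose groups overlapped in at least 1 region and signal below WT.

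The contrast between regions was not the one that chose the families, though it uses the same arrays. None of the 6 genes passed for hemisphere minus vermis in SmoM2 or in WT progenitors (limma, adjusted p no lower than 0.951), and 0 of 6 reached an unadjusted p under 0.05. The background was low as well, at 0.0605% of all genes in SmoM2 and 0.187% in WT progenitors, or 3.63% and 6.32% at an unadjusted p under 0.05. The regions overlapped for all 6 genes in both genotypes, while 10.7% and 8.77% of all genes had no overlap. Without regard to pairs, Nptx1 differed by -0.44 ± 0.27 in SmoM2 (95% interval -1.02 to 0.13) and -0.38 ± 0.27 in WT progenitors (-0.96 to 0.20). For Cbln4 the regional difference was 0.20 ± 0.18 in SmoM2 and 0.12 ± 0.18 in WT progenitors, and for Cbln2 it was 0.24 ± 0.13 and 0.15 ± 0.13.

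Arrays with the same replicate number deviated together between the regions within a genotype, so hemisphere and vermis can also be compared pair by pair. The sample titles do not say what such arrays share. The brightest Nptx1 set was lower in the hemisphere in 6 of 6 pairs, by -0.55 to -0.25 in SmoM2 and -0.64 to -0.23 in WT pairs, and the second set in 5 of 6. The brightest Cbln1 set was higher in the hemisphere in 6 of 6 pairs, by 0.02 to 0.08 in SmoM2 and 0.09 to 0.28 in WT pairs, but its other sets in 5 and 4 of 6, and Cbln2 in 5 of 6. With pairs as a block, the Nptx1 intervals lay below 0, at -0.68 to -0.20 in SmoM2 (unadjusted p = 0.00227) and -0.62 to -0.14 in WT progenitors (0.00563) by limma. Nptx1 was then the 1 of 6 genes with an unadjusted p under 0.05 in each genotype, beside 6.93% and 11.7% of all genes, and it did not pass after adjustment (0.264 and 0.204). Cbln1 had adjusted p of 0.978 and 0.482 in that fit. The 3 sets shared by Npcd and Nptxr did not pass between regions either, in the fit of all probe sets where 0.0333% and 0.0533% were called.

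The SmoM2 effect was compared between the regions directly by the interaction term. It was -0.06 for Nptx1 (95% interval -0.88 to 0.75) and 0.07 for Cbln4, with 0 of 6 genes past the threshold, 0 of 6 at an unadjusted p under 0.05, and 0% of all genes called by limma. At an unadjusted p under 0.05, 564 of all genes stood out (3.1%). With pairs as a block the interval for Nptx1 was -0.40 to 0.28, and 0 of 6 genes had an unadjusted p under 0.05 beside 7.07% of all genes.

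**Figure D3:**
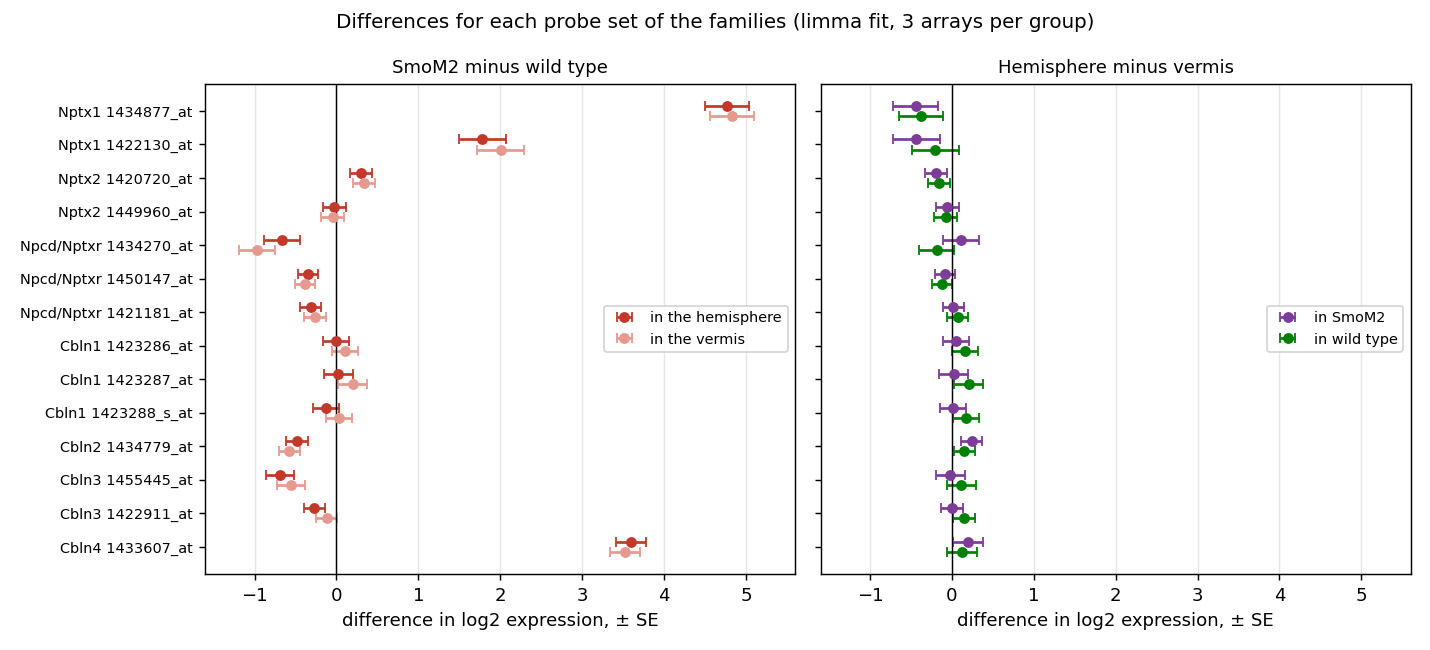
Difference in log2 expression with its SE (horizontal axis) for every probe set of the families (vertical axis), SmoM2 minus wild type in the left panel and hemisphere minus vermis in the right panel, from 3 arrays per group. Nptx1 and Cbln4 stand far right of 0 at left, by 4.77 and 3.60 in the hemisphere, while every regional difference at right lies between -0.44 and 0.24.

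Across the 12 arrays, which form 2 genotype clusters, the genes with a pattern most like Nptx1 were Crispld1 (Pearson r = 0.994), Peak1 (0.992), Fzd1 (0.991), Antxr1 (0.990) and Irs1 (0.990). Those most like Cbln4 were Smad3 (0.994), Arhgap31, Tbata, Bcl11b and Cdk6 (0.993 each). Nptx1 and Cbln4 correlated with each other at 0.971, and Cbln2 and Cbln3 at 0.694. For the remaining members the likeness was looser: Nptx2 was most like Cc2d1a (0.893), Slc30a1 (0.864) and Sox21 (0.860), and Cbln1 most like Cenpb (0.963), Ddx39b (0.946) and Zbtb22 (0.936). Cbln2 was most like Rpia (0.962), Specc1 (0.952) and Rxrg (0.940), and Cbln3 most like Snx24 (0.951), Tmem150c (0.944) and 1810013L24Rik (0.941). These values describe the arrays, which share a genotype within each cluster, and carry no test.

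Receptors and partners of both families were tested as a list of 54 genes, of which 51 were measured and the others were not analysed here. In SmoM2 progenitors 9 rose and 6 fell for the hemisphere and 11 rose and 6 fell for the vermis, that is 29.4% and 33.3% of them. Of all genes 14.8% passed for the hemisphere (7.62% higher and 7.18% lower) and 17% for the vermis (7.56% higher and 9.46% lower). Their median difference was -0.01 in both regions. Between the regions 0 of 51 passed in either genotype (limma).

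Of the 4 AMPA receptor subunits, which the pentraxins cluster, 1 rose and 1 fell in each region. Gria3 read 7.10, 7.05 and 7.14 in SmoM2 hemisphere arrays, against 6.11, 6.11 and 5.64 in WT hemisphere arrays. In the vermis Gria3 read 7.16, 7.06 and 7.28 in SmoM2 arrays, against 6.01, 6.10 and 5.73 in WT arrays. All SmoM2 arrays were the higher ones, and Gria3 rose by 1.14 ± 0.14 in the hemisphere (2.21-fold, adjusted p = 5.75e-05) and 1.22 ± 0.14 in the vermis (2.33-fold, adjusted p = 3.14e-05). Gria4 fell by 0.58 ± 0.11 in the hemisphere (adjusted p = 0.00316) and by 0.38 ± 0.11 in the vermis (adjusted p = 0.034). The Gria4 call in the vermis was lost without WT vermis replicate 1 or 3 or any of the SmoM2 vermis arrays (adjusted p 0.0586 to 0.13). It was also lost there with arrays centred on their medians (0.0608), and with the mean of its probe sets in both regions (0.122 and 0.0518). Its dimmer sets differed by -0.43 and 0.12 in the hemisphere and by -0.42 and -0.33 in the vermis, and neither passed. Gria1 differed by -0.44 and -0.01 and Gria2 by -0.05 and -0.21 in the hemisphere and the vermis, neither past the threshold.

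Of 11 auxiliary proteins of AMPA receptors, 3 rose in the hemisphere, 4 in the vermis and none fell in either region. Gsg1l, a claudin-like auxiliary subunit that dampens AMPA receptor currents, read 9.88, 9.90 and 9.97 in SmoM2 hemisphere arrays, against 7.99, 7.73 and 7.81 in WT hemisphere arrays. In the vermis Gsg1l read 9.89, 9.86 and 9.79 in SmoM2 arrays, against 7.46, 7.57 and 7.49 in WT arrays. The groups were far apart, and Gsg1l rose by 2.07 ± 0.10 in the hemisphere (4.19-fold, adjusted p = 6.45e-09) and 2.34 ± 0.10 in the vermis (5.07-fold, adjusted p = 3.22e-09). Cacng5, a transmembrane AMPA receptor regulatory protein, rose by 1.32 ± 0.19 and 1.48 ± 0.19 (adjusted p = 0.000342 and 0.000114), though its other, dimmer set differed by -0.25 and 0.07 and the mean of both gave 0.54 and 0.78. The remaining calls were less firm. On its brightest set Cacng2 passed in the hemisphere only, by 0.50 ± 0.14 (adjusted p = 0.0274), kept in 14 of 21 alternatives. For the vermis it passed with the mean of its probe sets (0.0361). The next-brightest Cacng2 set differed by 0.60 and 0.53 and passed among all probe sets in both regions (0.0112 and 0.0215). The dimmest set, at 0.37 and 0.30, passed in neither. In the vermis only, Cnih3, a cornichon auxiliary subunit, rose by 0.42 ± 0.13 (0.0342), kept in 13 of 20 alternatives. Shisa6 rose there by 0.41 ± 0.13 (0.0494), from a mean of 2.89, below every array's lower quartile (3.24 to 3.42), to 3.30. Its SmoM2 vermis arrays read 3.61, 3.18 and 3.12, with only replicate 1 above those quartiles. Cnih3 was also higher in the hemisphere than in the vermis of WT mice by 0.61. Its adjusted p of 0.0968 became 0.0357 with pairs as a block.

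Among the genes of pentraxin processing and the other pentraxins, 1 of 4 fell in each region and none rose. That gene was Ptx3, a secreted pentraxin of innate immunity, which read 5.16, 5.50 and 5.61 in SmoM2 hemisphere arrays, against 6.68, 6.34 and 6.45 in WT hemisphere arrays. Ptx3 fell by 1.06 ± 0.13 in the hemisphere and by 0.84 ± 0.13 in the vermis (adjusted p = 8.78e-05 and 0.000585). Its vermis levels were 5.91, 5.97 and 5.73 in SmoM2 arrays, against 6.82, 6.61 and 6.71 in WT arrays, and the groups overlapped in neither region. The dimmer Ptx3 set differed by -0.10 and -0.22 and did not pass, and the mean of both sets gave -0.58 and -0.53, still past the threshold. Adam17 missed the threshold with differences of 0.23 and 0.19 (adjusted p = 0.247 and 0.331), although it passed in the hemisphere without WT hemisphere replicate 1 (0.0473).

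On the cerebellin side, Grid1, a delta glutamate receptor gene, did not pass, differing by -0.07 in the hemisphere and -0.24 in the vermis. Of the neurexins, Nrxn3 fell by 0.75 ± 0.16 in the vermis (adjusted p = 0.0063), while its difference of -0.42 in the hemisphere did not pass (0.0934) on the brightest set. There Nrxn3 passed without WT hemisphere replicate 1 (0.00652), with array weights (0.0367) and with the mean of its probe sets (0.0103), and 3 of its dimmer sets, at -0.60, -0.70 and -0.88, passed among all probe sets (0.0361, 0.0162 and 0.0118). Nrxn2 differed by -0.23 and -0.49 (adjusted p = 0.41 and 0.0781), and in the vermis it passed under 5 of 21 alternatives (0.0211 to 0.0435), among them those without WT hemisphere replicate 2 (0.0369) or 3 (0.0342). Dcc differed by 0.27 and -0.05 and did not pass. Its relative Neo1, the netrin receptor neogenin, fell by 0.38 ± 0.12 in the hemisphere (adjusted p = 0.0449) and differed by -0.33 in the vermis (0.0699). The Neo1 call in the hemisphere was lost without any 1 of 9 of the 12 arrays, the exceptions being WT hemisphere replicate 1 and WT vermis replicates 1 and 3, and with the mean of its probe sets (0.686). In the vermis Neo1 passed under 3 of 21 alternatives (0.0262 to 0.0336), among them that without WT hemisphere replicate 3. The next-brightest set differed by -0.40 and -0.43 and passed among all probe sets in both regions (0.0259 and 0.0193), while the 3 dimmer Neo1 sets did not.

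C1ql3, a secreted C1q-like relative of the cerebellins that binds the adhesion receptor Adgrb3, was the 1 gene of 4 on its list that rose. It read 7.44, 7.54 and 7.86 in SmoM2 hemisphere arrays, against 5.73, 5.44 and 5.38 in WT hemisphere arrays. In the vermis C1ql3 read 6.96, 7.03 and 7.06 in SmoM2 arrays, against 4.85, 5.50 and 5.02 in WT arrays. The groups did not overlap, and C1ql3 rose by 2.09 ± 0.16 in the hemisphere (4.27-fold, adjusted p = 8.1e-07) and 1.89 ± 0.16 in the vermis (3.71-fold, adjusted p = 2.39e-06). Its 2 dimmer sets differed by 0.90 and 0.91 in the hemisphere and by 0.83 and 0.34 in the vermis, where the 0.34 did not pass, and the mean of its sets gave 1.30 and 1.02.

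Of 22 other trans-synaptic organizers, the hemisphere had 4 that rose and 3 that fell, and the vermis 5 and 3. Lrrc4, a netrin-G ligand on the postsynaptic side, fell by 0.93 ± 0.15 in the hemisphere and by 1.32 ± 0.15 in the vermis (adjusted p = 0.000932 and 4.55e-05). Its levels were 5.52, 5.20 and 5.21 in SmoM2 hemisphere arrays, against 6.38, 6.11 and 6.25 in WT hemisphere arrays. Clstn2, a calsyntenin, rose by 0.89 ± 0.14 and 0.80 ± 0.14 (adjusted p = 0.000602 and 0.0013), a call that was lost in both regions with the mean of its probe sets (0.193 and 0.0767). The other Clstn2 set, nearly as bright (mean 5.00 against 5.14), went the other way by -0.35 and -0.06 and did not pass. The direction for Clstn2 thus rests on the probe set. Lrrc4c fell by 0.59 in the hemisphere and by 0.90 in the vermis. Its hemisphere call was kept in only 7 of 20 alternatives (adjusted p up to 0.196), its vermis call in all 20. Nlgn1 rose by 0.41 ± 0.11 and 0.66 ± 0.11 (adjusted p = 0.0292 and 0.00132). Its hemisphere call was kept in 14 of 21 alternatives and its vermis call in all 21. The interaction term had an adjusted p of 1 for the partner genes named here, so none of these effects was shown to differ between the regions.

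**Figure D4:**
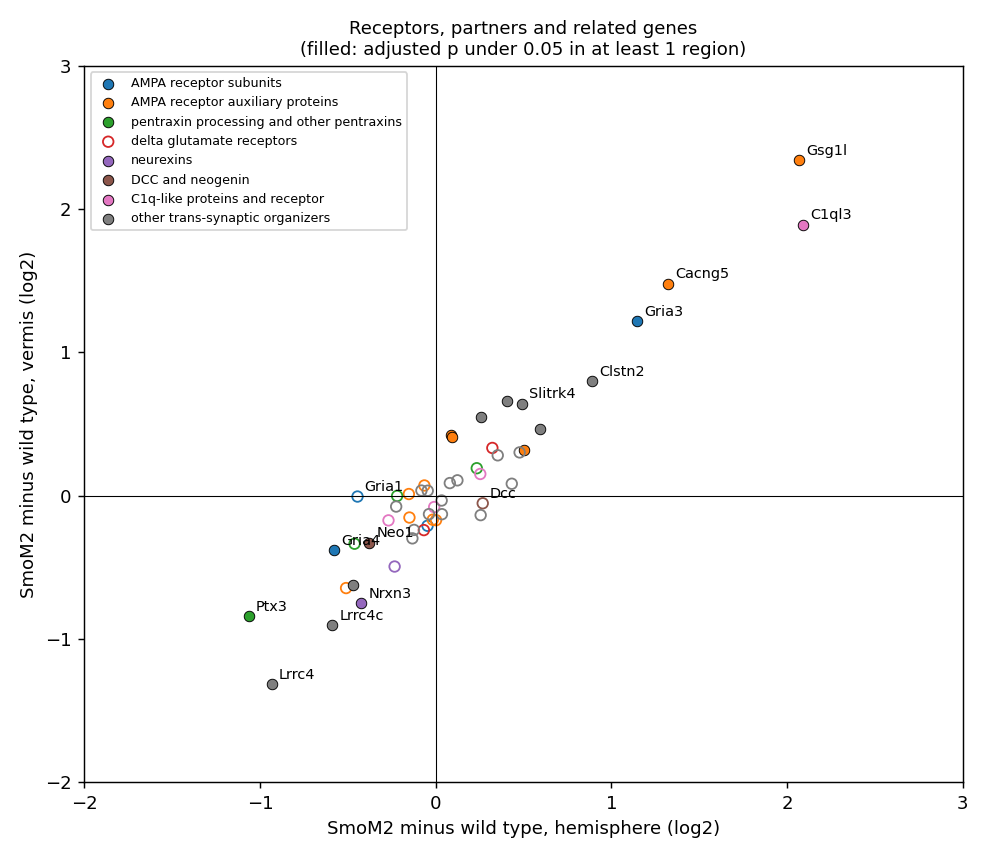
SmoM2 minus wild type in log2 expression for the 51 measured receptors, partners and related genes, with the hemisphere on the horizontal and the vermis on the vertical axis. Colours mark the lists and filled points passed an adjusted p under 0.05 in at least 1 region. Gsg1l, C1ql3, Cacng5 and Gria3 lie at the upper right and Ptx3 and Lrrc4 at the lower left.

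Markers of other cell states and cell types moved with genotype beside these values. In bulk RNA, fewer cells of a type and less RNA per cell cannot be told apart. Of 6 markers of differentiating granule neurons 4 fell in each region, Neurod1 by 0.85 in the hemisphere and 0.82 in the vermis. Their summed linear signal was 9040 to 9730 in SmoM2 hemisphere arrays, against 13737 to 15973 in WT hemisphere arrays, and 9349 to 9772 in SmoM2 vermis arrays, against 14411 to 16070 in WT vermis arrays. The 6 measured mature granule neuron markers summed to 239 to 300.1 in SmoM2 hemisphere arrays, against 321 to 380 in WT hemisphere arrays, and to 208 to 260 in SmoM2 vermis arrays, against 277 to 333 in WT vermis arrays, with 1 falling in the hemisphere and 2 falling in the vermis.

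Of 5 measured inhibitory interneuron markers, 3 fell for the hemisphere and all 5 for the vermis, with sums of 149 to 240.1 in SmoM2 hemisphere arrays, against 274 to 380 in WT hemisphere arrays, and 119 to 183 in SmoM2 vermis arrays, against 352 to 444 in WT vermis arrays. Of 6 unipolar brush cell and cerebellar nuclei markers, 2 fell for the hemisphere and 3 for the vermis, with sums of 156 to 201 in SmoM2 hemisphere arrays, against 717 to 999 in WT hemisphere arrays, and 175 to 213 in SmoM2 vermis arrays, against 882 to 1235 in WT vermis arrays. The median log2 difference of these 6 was -0.21 in the hemisphere and -0.50 in the vermis. In each group 2 of them had a mean below every array's lower quartile. Of 8 microglial markers 6 fell in each region, with sums of 416 to 600.2 in SmoM2 hemisphere arrays, against 960 to 1107 in WT hemisphere arrays, and 500 to 704 in SmoM2 vermis arrays, against 1000 to 1078 in WT vermis arrays. Of 7 oligodendrocyte lineage markers 5 fell in each region, with sums of 2458 to 3600 in SmoM2 hemisphere arrays, against 5840 to 7452 in WT hemisphere arrays, and 2423 to 3811 in SmoM2 vermis arrays, against 7020 to 9851 in WT vermis arrays. Of 7 astroglial markers 1 rose and 2 fell in each region, with sums of 6385 to 9349 in SmoM2 hemisphere arrays, against 10086 to 12606 in WT hemisphere arrays, and 7423 to 10315 in SmoM2 vermis arrays, against 9798 to 12213 in WT vermis arrays. Of 6 endothelial and pericyte markers none passed for the hemisphere and 3 fell for the vermis, with sums of 1221 to 1472 in SmoM2 hemisphere arrays, against 1057 to 2047 in WT hemisphere arrays, and 791 to 1234 in SmoM2 vermis arrays, against 1601 to 2088 in WT vermis arrays. Of 6 meningeal and fibroblast markers 1 rose and 3 fell in each region, with sums of 2265 to 2811 in SmoM2 hemisphere arrays, against 2797 to 3653 in WT hemisphere arrays, and 2367 to 2803 in SmoM2 vermis arrays, against 3273 to 3758 in WT vermis arrays. RMA levels do not reach 0 on these arrays, so a marker level above 0 does not show that its cells were present. The part of these cells in the lower values of Cbln2, Cbln3, Nrxn3, Lrrc4, Ptx3 and the shared Npcd and Nptxr sets was not tested.

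For Purkinje cells, 1 of 6 measured markers rose in each region and 1 fell in the vermis. Their sums were 356 to 381 in SmoM2 hemisphere arrays, against 258 to 288 in WT hemisphere arrays. In the vermis they were 435 to 471 in SmoM2 arrays, against 363 to 435 in WT arrays. The median difference of these markers went the other way, at -0.09 in the hemisphere and -0.37 in the vermis. A mean below every array's lower quartile was found for 2 of the 6 in each SmoM2 group and 1 in each WT group. The 6 progenitor markers split, 2 rising and 2 falling for the hemisphere and 2 rising and 1 falling for the vermis, and their sums overlapped between the genotypes in both regions. The step from the 5′ to the 3′ probe sets of Actb, a sign of RNA integrity, was 0.98 ± 0.11 in SmoM2 hemisphere, 0.64 ± 0.17 in WT hemisphere, 0.96 ± 0.10 in SmoM2 vermis and 0.89 ± 0.01 in WT vermis arrays (SD, n = 3 each). Its mean was larger in SmoM2 than in WT hemisphere arrays, and its part in the differences was not tested.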

How the data were processed

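Total RNA was hybridised to Affymetrix Mouse Genome arrays with probes near the 3′ end of transcripts, per the labels' protocols. Deposited values are log2 levels per probe set, which the authors made with Partek and RMA, per the submitters' processing notes. The sources used here give neither versions nor further filters. Of 45101 probe sets, 64 controls were left out, and 34945 of the others had 1 gene symbol in the platform annotation. The brightest set by mean over the 12 arrays stood for each of 18193 genes. Samples were grouped by title.

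limma 3.58.1 in R 4.3.3 (lmFit, eBayes) fitted 1 mean per group over all 12 arrays with 8 residual degrees of freedom, and a gene passed at a two-sided Benjamini-Hochberg adjusted p under 0.05 over all genes. The shared Npcd and Nptxr sets were fitted with all 45037 non-control sets, a choice made after seeing the data. Only 3 arrays per group limit the precision, and p-values measure the spread between pools.

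The members, gene lists and tests were chosen with earlier results of these data known. Named genes were all members, receptors and ligands of both families whatever their values, up to 4 other genes of a partner list that passed with the largest differences, and the genes of highest correlation. Shisa6 was named beyond this rule. Same-numbered arrays of the 2 regions deviated together within a genotype (correlations of deviations 0.142 to 0.275 in SmoM2 and 0.337 to 0.527 in WT), so a fit with pairs as a block was added. Alternatives were the pairing, the probe set rule, renormalization, moderation, array weights, the groups fitted and leaving out each array. Motifs were searched as plain letters in RefSeq promoters.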

Additional observations from a re-analysis of the deposited data

How the results depend on the processing

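The SmoM2 differences of Nptx1, Cbln4, Cbln2 and Cbln3 kept their sign under every alternative run. Without 1 array, Nptx1 ranged from 4.58 to 5.08 in the hemisphere and 4.61 to 5.08 in the vermis, Cbln4 from 3.50 to 3.67 and 3.31 to 3.70. With the mean of the probe sets, Nptx1 was 3.27 and 3.42, Nptx2 0.15 in the vermis and Cbln3 -0.48 in the hemisphere. On the next set, Nptx1 was 1.78 and 2.01, Nptx2 -0.024 and -0.046, Cbln3 -0.27 and -0.12, and Cbln1 0.021 in the hemisphere. Cbln2 was -0.33 in the hemisphere after quantile renormalization, and Cbln1 there was 0.021 with array weights and -0.10 to 0.19 without 1 array. Over 18 results of region and interaction for the members, 0 of 390 alternative values passed, with a lowest adjusted p of 0.204. Called genes numbered 2694 in the hemisphere (1753 with only the compared groups, 1633 to 4277 without 1 array) and 3096 in the vermis (1756 to 3828). The hemisphere count was 1633 without SmoM2 hemisphere replicate 1, 1704 without replicate 3 and 4277 without WT hemisphere replicate 1. The vermis count was 1795 and 1756 without SmoM2 vermis replicates 1 and 2 and 1873 and 1920 without WT vermis replicates 2 and 3. Between regions, the 11 genes in SmoM2 became 6 among brighter genes, 1 without moderation, 42 with array weights and 2 to 18 without 1 array. The 34 in WT became 21, 5, 15 and 8 to 58, and 3 with only the compared groups, and the interaction had 0 to 1 genes without 1 array. With a replicate block the SmoM2 counts were 3254 and 3745. With the replicate block within genotype the region counts were 15 and 49. Of partner genes, 1 passed between WT regions with either replicate block or quantile renormalization, which was Cnih3 with the block, and no other call of a named region result changed. Partner genes that fell in the hemisphere numbered 3 with only the compared groups and 3 to 8 without 1 array, 3 without WT hemisphere replicate 3 or SmoM2 hemisphere replicate 1 or 3. Those that rose numbered 6 to 10 in the hemisphere and 7 to 11 in the vermis (7 without WT vermis replicate 2), where they were 6 among brighter genes and 7 without moderation, and those that fell in the vermis 5 to 9. The cause of these shifts was not tested. Values near the lower quartile, as for WT Cbln4, limit what the array can measure.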
